A study of Mus musculus with 12 samples.

Results

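The 9 genes described here encode the signalling subunits of the T cell receptor (TCR) complex and the proteins that act first when the receptor is engaged: Cd3e, Cd3d, Cd3g and Cd247, the coreceptor Cd4, the kinases Lck and Zap70, and the adaptors Lat and Lcp2. They were chosen by name, as known components of the pathway, from the 36222 genes in the expression table. All 9 were found under a single identifier each and all 9 passed the filter on low values. RNA sequencing was done on mouse regulatory T cells (Treg), in 12 libraries that formed 4 groups of 3. The labels give the spleen as their source, while the study's general method for purifying Treg names lymph node as well. CD4+ T cells were isolated from single animals, and Treg were sorted by the yellow fluorescent protein (YFP) that is made together with the Cre recombinase under control of Foxp3. Wild-type (WT) animals carried this Cre alone (WT YFP Cre+), and the conditional knockout (cKO) animals carried it together with loxP-flanked Ikzf1, so that Ikaros was removed in Foxp3-expressing cells only (Ikzf1-Treg-cko). Both genotypes therefore carried the Cre. Animals were young and age-matched. From each genotype, 3 libraries came from Treg taken directly ex vivo and 3 from Treg stimulated for 4 h on antibodies to CD3 and CD28 coated on the plate, each at 1 µg/ml. Cd4 protein was part of the isolation, and CD3 was the target of the stimulating antibody.

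The TCR alpha and beta chains bind antigen but cannot signal by themselves. They are assembled with the CD3 epsilon, delta and gamma chains and the zeta chain (Cd247), whose cytoplasmic tails carry immunoreceptor tyrosine-based activation motifs (ITAMs). Lck, held at the coreceptor CD4, phosphorylates the ITAM tyrosines, ZAP-70 docks on them and phosphorylates the scaffold LAT, and LAT together with SLP-76 (Lcp2) brings the downstream enzymes to the membrane. Treg need TCR signals to keep up their suppressive function.

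The ITAM coding sequences are shown first, because the number of motifs is what separates Cd247 from the CD3 chains, and the ratio of Cd247 to Cd3e was highest in the cKO stimulated libraries. They were read from the GENCODE vM1 protein-coding transcripts (NCBIM37, which is mm9, the build of the files) as a codon pattern with a tyrosine codon, any 2 codons, a leucine or isoleucine codon, 6 to 8 further codons, and again tyrosine, any 2 codons and leucine or isoleucine. The pattern was found 1 time each in Cd3e, Cd3d and Cd3g, 3 times in Cd247, and not in the other 5 genes. The sequences are given 5′ to 3′ in the coding direction, and capitals mark the codons of the 2 tyrosines that are phosphorylated.
Cd3e: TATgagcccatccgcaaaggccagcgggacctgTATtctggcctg
Cd3d: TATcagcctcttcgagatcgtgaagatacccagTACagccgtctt
Cd3g: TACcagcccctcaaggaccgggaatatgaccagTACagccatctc
Cd247 motif 1: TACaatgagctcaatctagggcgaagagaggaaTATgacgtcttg
Cd247 motif 2: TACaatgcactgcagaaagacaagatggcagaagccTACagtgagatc
Cd247 motif 3: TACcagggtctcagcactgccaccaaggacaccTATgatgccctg
These stretches spanned 45 bases each, except the second motif of Cd247 with 48. In the coding sequence of Cd247 (495 bases), they began at bases 214, 331 and 424.

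The 3 CD3 genes lay next to each other on chromosome 9 (mm9), within 40019 bp: Cd3g at chr9:44777655-44788514 on the minus strand, Cd3d at chr9:44789876-44795135 on the plus strand, and Cd3e at chr9:44806826-44817673 on the minus strand. Cd3g and Cd3d were separated by 1361 bp and pointed away from each other. Cd247 lay at chr1:167718812-167807407 (plus), Zap70 at chr1:36818695-36839663 (plus), Cd4 at chr6:124814710-124838239 (minus), Lck at chr4:129225588-129250885 (minus), Lat at chr7:133507346-133513057 (minus) and Lcp2 at chr11:33946920-33992295 (plus). Cd247 shared exon sequence on its own strand with the model Gm16565, so that its count is uncertain in that stretch. The other 8 genes had no gene overlapping them on the same strand.

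Libraries held 8208659 to 20247649 reads assigned to genes, and the 9 genes were covered by 447 to 14834 reads per library. Values are TPM, a transcript abundance that is corrected for gene length and library size. One predicted gene, Gm10800, took a large share of the TPM, which lowered the deposited TPM of all other genes: 17.7% to 39.8% (WT) and 20.4% to 24.4% (cKO) ex vivo, and 32.6% to 44.4% (WT) and 42.9% to 55.9% (cKO) after stimulation. The highest ex vivo share, 39.8%, was that of WT ex vivo replicate 2, which also had the lowest TPM of its group for all 9 members. Without this library, the number of members called in each comparison was the same, and the Cd4 difference ex vivo was 0.39 (adjusted p = 0.147). Likewise, cKO stimulated replicate 3 had the highest share of all libraries (55.9%), the fewest reads and the lowest TPM of its group for all 9 members, which summed to 777 TPM against 1292 and 1178 TPM in replicates 1 and 2. Without it, none of the 3 members called for genotype in stimulated cells was called, 9 members instead of 8 were called by stimulation in WT, and the numbers in the other comparisons were the same. Ikzf1 itself was at 83.8 to 125 TPM in WT and 38.8 to 44.3 TPM in cKO ex vivo, and after stimulation 66.4 to 83.4 TPM (WT) and 17.0 to 31.6 TPM (cKO), so that every cKO library was below every WT library of its condition. WT ex vivo replicate 3 had 179 TPM of Xist, which is expressed from the inactive X chromosome, and 0.097 TPM of the Y-linked Ddx3y, against 0.624 to 1.36 TPM and 14.7 to 52.8 TPM in the other 11 libraries. Of 5 genes known to respond to TCR stimulation, Egr2 was at 15.8 to 26.3 TPM ex vivo and 31.7 to 70.5 TPM in stimulated libraries, and Myc at 40.3 to 75.0 and 58.1 to 108 TPM. Cd69 went the other way, from 284 to 492 TPM ex vivo to 66.97 to 173 TPM. Nr4a1 (636 to 1145 and 388 to 851 TPM) and Il2ra (92.9 to 163 and 116 to 257 TPM), like Myc, overlapped between ex vivo and stimulated libraries. Summed over 7 B cell markers, WT ex vivo libraries had 17.1 to 19.8 TPM and cKO ex vivo libraries 26.0 to 36.2 TPM, against 1184 to 2053 TPM over 6 T cell markers. These T cell markers were Thy1 and the members Cd3e, Cd3d, Cd3g, Cd247 and Cd4, so this sum is not independent of the genes described. Over 5 Treg markers, none of them a member, ex vivo libraries had 976 to 1536 TPM. No B cell marker was at 0 in all libraries. The part of B cell RNA in the genotype comparisons was not tested. CD8 T cell markers (2 genes) summed to 8.84 to 16.3 TPM in all 12 libraries, NK cell markers (4 genes) to 4.26 to 10.6 TPM, myeloid markers (6 genes) to 13.0 to 32.0 TPM and red cell markers (5 genes) to 2.01 to 7.37 TPM, and none of these genes was at 0 in all libraries.

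Changes were tested with limma on log2(TPM + 1) after scaling between libraries by trimmed means of M-values. A total of 13318 genes with at least 5 TPM in the mean of 1 group or more were tested in 5 comparisons: cKO against WT ex vivo, cKO against WT after stimulation, stimulated against ex vivo in each genotype, and the difference between the 2 stimulation effects (the interaction). A gene was called at an adjusted p under 0.05. In bulk RNA, fewer cells of a type and less RNA per cell cannot be told apart. P-values rest on the spread between libraries within groups, estimated over all 4 groups of 3 and moderated by limma. They do not measure the spread of the 2 compared groups alone.

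In WT Treg ex vivo, Cd3e was the most abundant of the 9 mRNAs with 554 ± 112 TPM (SD, n = 3), followed by Cd3g (360 ± 75.0), Lat (333 ± 74.7), Lck (226 ± 49.2), Cd4 (189 ± 41.9), Cd3d (147 ± 33.2), Zap70 (105 ± 25.5), Lcp2 (98.1 ± 21.1) and Cd247 (55.7 ± 12.6). Compared between libraries, neighbours in this order overlapped, except that all Cd247 libraries (42.4 to 67.6 TPM) were below all Lcp2 libraries (74.7 to 116). Within each WT ex vivo library, however, the same order held, except that Lat (384 TPM) was above Cd3g (355 TPM) in replicate 1. Even Cd247 stood at the 91.4th percentile of all tested genes in this group, and Cd3e at the 99.3rd. In the other groups Cd3e and Cd3g kept the first and second rank and Cd247 the last, and the order changed in between. Zap70 had rank 7 in WT ex vivo and rank 4 in WT stimulated (160 ± 21.0 TPM), while Lck moved from rank 4 to rank 6 (132 ± 18.9). In cKO ex vivo Treg, Cd4 had rank 4 with 302 ± 19.4 TPM.

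**Figure D1:**
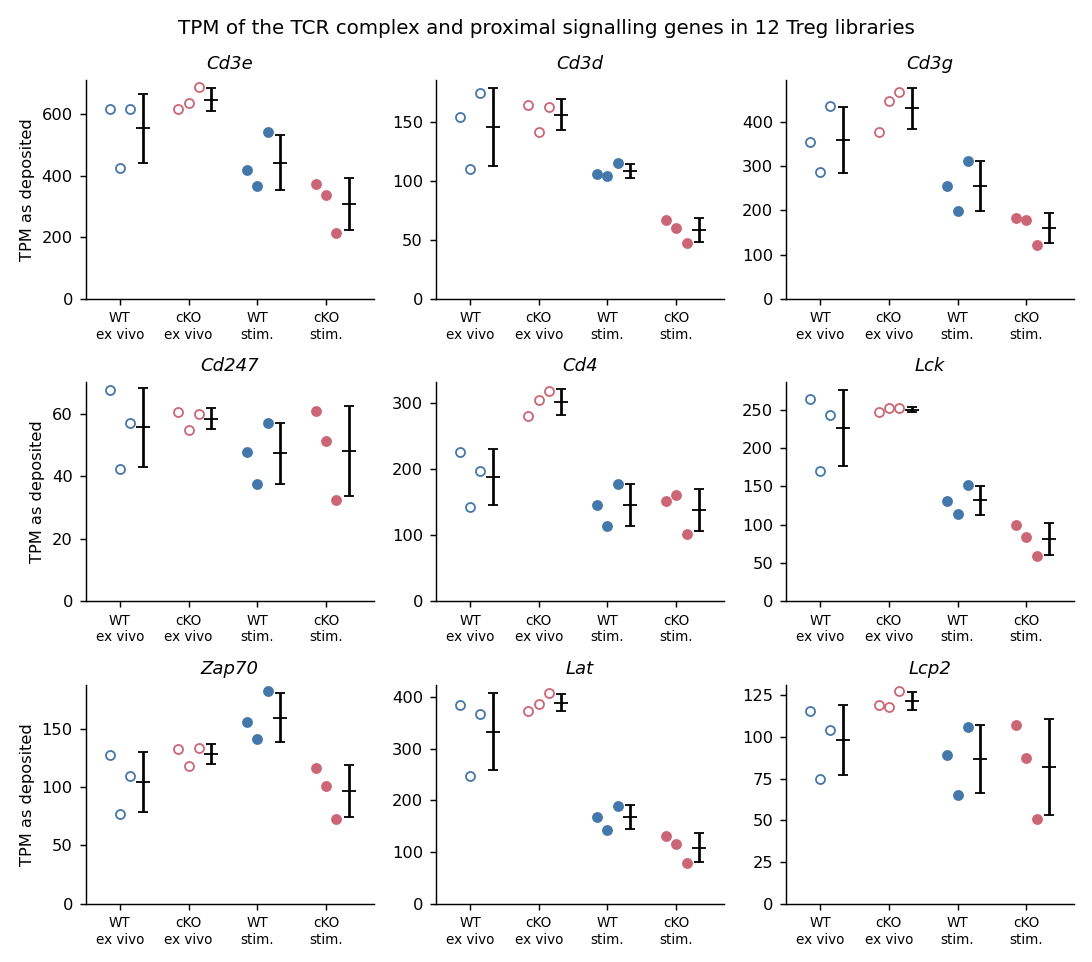
TPM as deposited (y axis, from 0) of each of the 9 genes in the 12 libraries, by group (x axis); open points are ex vivo, filled points stimulated, blue WT and red cKO, and the bars show mean ± SD of 3 libraries. Lat and Lck were lower in every stimulated library than in any ex vivo library, whereas Zap70 was higher in WT stimulated libraries than in WT ex vivo libraries.

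The CD3 chains were of similar abundance in both genotypes ex vivo and lower after stimulation. Cd3e, which carries 1 ITAM and is needed for assembly of the receptor, was measured at 618, 424 and 619 TPM in WT ex vivo replicates 1 to 3, at 617, 638 and 688 TPM in cKO ex vivo, at 418, 368 and 541 TPM in WT stimulated, and at 375, 337 and 214 TPM in cKO stimulated. The ex vivo genotypes overlapped, WT stimulated overlapped with WT ex vivo, and every cKO stimulated library was below every cKO ex vivo library. On the scaled log2 axis, Cd3e did not differ by genotype ex vivo (0.01, SE 0.13, adjusted p = 0.989). It fell by 0.52 with stimulation in WT (SE 0.13, adjusted p = 0.0115), with the opposite sign under quantile normalization (0.40, adjusted p = 0.00487), and fell by 0.77 in cKO (adjusted p = 0.000959), where quantile normalization gave 0.08 (adjusted p = 0.471).

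Cd3d, the CD3 delta chain, was at 155, 110.0 and 175 TPM in WT ex vivo, 165, 142 and 163 TPM in cKO ex vivo, 106, 104 and 115 TPM in WT stimulated, and 67.3, 60.6 and 47.3 TPM in cKO stimulated. The 3 cKO stimulated libraries were below all 9 others. The genotype difference after stimulation was -0.61 (SE 0.14, adjusted p = 0.0229), and the interval of the ex vivo difference was -0.38 to 0.15. Cd3d fell by 0.60 with stimulation in WT (adjusted p = 0.00609), a change no longer called under quantile normalization (-0.10, adjusted p = 0.457), and fell by 1.09 in cKO (adjusted p = 0.000121). The genotype difference in stimulated cells was called in 8 of the 12 fits that left out 1 library, and was not called without WT stimulated replicate 2 (adjusted p = 0.107, the highest of the 12), WT stimulated replicate 3 or cKO stimulated replicates 1 or 3.

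Cd3g, the CD3 gamma chain, was at 355, 287 and 437 TPM in WT ex vivo, 377, 447 and 468 TPM in cKO ex vivo, 256, 199 and 311 TPM in WT stimulated, and 182, 177 and 122 TPM in cKO stimulated. All cKO stimulated libraries were below all WT stimulated libraries, but the difference of -0.38 (SE 0.14) had an adjusted p of 0.142. Cd3g fell by 0.69 in WT (adjusted p = 0.00369), with 0.13 under quantile normalization (adjusted p = 0.39), and fell by 1.11 in cKO (adjusted p = 0.000158). The falls of Cd3d and Cd3g in cKO were called in all 22 alternative analyses.

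Cd247 was lower after stimulation in WT, as were the CD3 chains, but its change in cKO was 0.00, a difference between genotypes that was not called (adjusted p = 0.301). The gene for the zeta chain, which alone carries 3 ITAMs, was at 67.6, 42.4 and 57.0 TPM in WT ex vivo, 60.6, 54.7 and 60.1 TPM in cKO ex vivo, 47.7, 37.4 and 57.0 TPM in WT stimulated, and 60.8, 51.2 and 32.4 TPM in cKO stimulated. All 4 groups overlapped in deposited TPM. With stimulation it fell by 0.42 in WT (SE 0.12, adjusted p = 0.0247), which was called in 13 of 22 alternatives. It was not called without WT ex vivo replicates 1 or 3 or WT stimulated replicates 1 or 2 (highest adjusted p = 0.0821), nor under quantile normalization (-0.10, adjusted p = 0.377), with the 50 TPM filter (-0.0064) or in unscaled TPM (-0.22). The change in cKO was 0.00 (interval -0.24 to 0.25, adjusted p = 0.979). The genotype difference in stimulated cells was 0.28 (adjusted p = 0.198).

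Cd4 was the member that came nearest to a genotype difference ex vivo. It was at 226, 143 and 197 TPM in WT ex vivo and 281, 306 and 319 TPM in cKO ex vivo, and after stimulation at 146, 114 and 178 TPM in WT and 152, 162 and 102 TPM in cKO. The ex vivo genotypes did not overlap, with cKO higher, while the stimulated genotypes did. The ex vivo difference was 0.46 (SE 0.12, interval 0.22 to 0.70) and missed the threshold (adjusted p = 0.0528). It was called in 5 of 22 alternatives, among them those restricted to genes of at least 50 TPM (0.49, adjusted p = 0.0024) and quantile normalization (0.57, adjusted p = 0.0053). Without cKO ex vivo replicate 3 the adjusted p was 0.174. With stimulation, Cd4 fell by 0.56 in WT (adjusted p = 0.00481; 0.05 under quantile normalization, adjusted p = 0.726) and by 0.81 in cKO (adjusted p = 0.000396; -0.11 under quantile normalization, adjusted p = 0.345).

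Lck, the Src-family kinase that phosphorylates the ITAMs, was lower after stimulation in both genotypes. Its values were 264, 170.2 and 243 TPM in WT ex vivo, 246, 252 and 251 TPM in cKO ex vivo, 131, 114 and 151 TPM in WT stimulated, and 100.1, 84.4 and 58.7 TPM in cKO stimulated. The 3 levels, ex vivo, WT stimulated and cKO stimulated, did not overlap. Lck fell by 0.95 with stimulation in WT (SE 0.10, adjusted p = 4.96e-05) and by 1.32 in cKO (adjusted p = 4.91e-06). In stimulated cells it was lower in cKO by -0.43 (SE 0.10, adjusted p = 0.0270), which was called in 7 of the 12 fits without 1 library (without cKO stimulated replicate 3, adjusted p = 0.131).

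Zap70, which encodes the kinase that docks on phosphorylated ITAMs, was the only member that was higher after stimulation in WT. It was at 127, 77.0 and 109 TPM in WT ex vivo and at 155, 141 and 182 TPM in WT stimulated, which did not overlap. In cKO it was at 133, 118 and 133 TPM ex vivo and 116, 101 and 72.2 TPM after stimulation. Zap70 rose by 0.43 with stimulation in WT (SE 0.11, adjusted p = 0.0133), which was not called without WT stimulated replicate 2 (adjusted p = 0.0591). With a filter of 1 TPM the rise was 0.18 (adjusted p = 0.782). In cKO the change was -0.10 (interval -0.32 to 0.12, adjusted p = 0.479). In stimulated cells Zap70 was lower in cKO by -0.45 (SE 0.11, adjusted p = 0.0367), with an adjusted p of 0.157 without cKO stimulated replicate 3. Among the 12 fits without 1 library, 5 called it.

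Lat had the largest fall of the 9 genes with stimulation. The transmembrane scaffold was at 384, 247 and 368 TPM in WT ex vivo, 374, 387 and 407 TPM in cKO ex vivo, 168, 144 and 190.1 TPM in WT stimulated, and 132, 116 and 78.0 TPM in cKO stimulated. Lat fell by 1.17 in WT (SE 0.11, adjusted p = 2.61e-05) and by 1.54 in cKO (adjusted p = 3.62e-06). These falls and those of Lck were called in all 22 alternatives. After stimulation all cKO libraries were below all WT libraries, with a difference of -0.35 (SE 0.11) that was not called (adjusted p = 0.0827). Lcp2, which encodes the cytosolic partner SLP-76, was at 116, 74.7 and 104 TPM in WT ex vivo, 119, 118 and 128 TPM in cKO ex vivo, 89.2, 65.2 and 106 TPM in WT stimulated, and 107, 87.6 and 50.7 TPM in cKO stimulated. Its stimulated libraries overlapped between genotypes. None of its 4 changes was called: -0.38 with stimulation in WT (adjusted p = 0.0746), -0.30 in cKO (adjusted p = 0.115), 0.09 for genotype ex vivo (interval -0.19 to 0.38) and 0.17 for genotype after stimulation (interval -0.12 to 0.45).

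Counted together, none of the 9 genes was called for genotype ex vivo, where 5.29% of all tested genes were called (3.62% higher, 1.67% lower in cKO). By limma's unadjusted p under 0.05, 1 member passed, as did 2384 of all genes. In stimulated cells 3 of 9 were called, all lower in cKO (Cd3d, Lck and Zap70), against 6.93% of all tested genes (3.63% lower, 3.30% higher). With stimulation 8 of 9 were called in WT, 7 lower and 1 higher, against 32.0% of all genes (19.3% lower, 12.7% higher). In cKO 6 of 9 were called, all lower, against 43.8% of all genes (26.5% lower, 17.3% higher). The libraries of both groups did not overlap in deposited TPM for 2 of 9 members by genotype ex vivo (Cd4 and Lcp2, both higher in cKO), 5 by genotype after stimulation, 3 by stimulation in WT and 8 by stimulation in cKO, and this held for 22.9%, 30.8%, 33.1% and 51.4% of all tested genes. In scaled TPM the members without overlap numbered 1 (Cd4), 5, 9 and 6, against 21.5%, 30.8%, 47.5% and 53.5% of all tested genes. With a filter of 1 TPM in place of 5, none of the 3 genotype calls in stimulated cells was made. In that fit 52 of 33873 genes were called for this comparison. The changes were -0.91 (Cd3d), -0.73 (Lck) and -0.75 (Zap70). By limma's unadjusted p under 0.05, 5 members passed and 4494 of all genes did. Of the calls in WT by stimulation 2 were made (Lck and Lat), where 1731 of all genes were called. The median change of the 9 genes was 0.01 and -0.35 for genotype ex vivo and stimulated, and -0.56 and -0.81 for stimulation in WT and cKO, where the medians over all tested genes lay between -0.03 and 0.00. The comparisons share libraries and are not independent of each other.

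**Figure D2:**
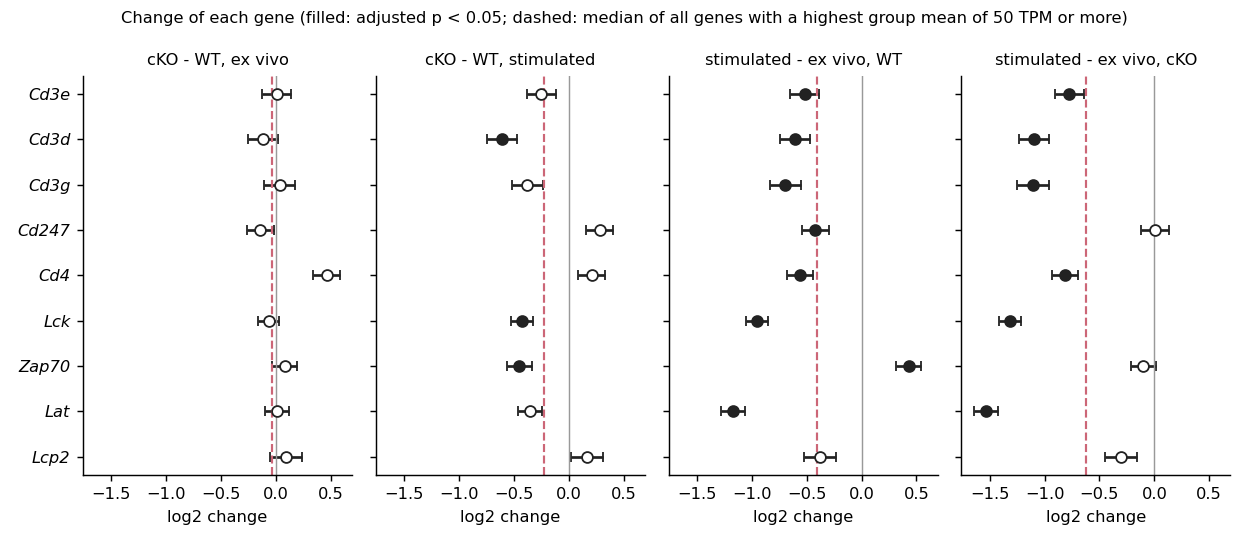
Log2 change (x axis) of each gene (y axis) in 4 comparisons; points are limma estimates on scaled log2(TPM + 1), bars are standard errors, filled points were called at an adjusted p under 0.05, and the dashed red line is the median of the 1666 genes that reached 50 TPM in the mean of some group. Lck and Lat lie to the left of the dashed line in the comparisons by stimulation, and Zap70 to its right.

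The changes with stimulation depended on how abundant a gene was. Among all tested genes of 5 to 10 TPM (5230 genes), the median change with stimulation was 0.20 in WT and 0.36 in cKO. The low signal of 1716 olfactory and vomeronasal receptor genes, which T cells are not known to use, moved the same way: its median in deposited TPM was 0.667 (WT) and 0.837 (cKO) ex vivo, and 0.94 (WT) and 1.04 (cKO) after stimulation. The part of this background in the changes was not tested. Among the 725 genes of at least 100 TPM, where 8 of the 9 members lie, the median change with stimulation was -0.61 in WT and -0.78 in cKO. Of these 725 genes, 59.7% were called lower in WT and 70.9% in cKO. For genotype in stimulated cells the medians ran from 0.14 to -0.26 over the same classes, with 12.7% of the genes of at least 100 TPM called lower. Ex vivo, the class medians for genotype stayed between -0.09 and 0.00. Cd3e, Cd3d, Cd3g and Cd4 changed by -0.52, -0.60, -0.69 and -0.56 in WT, within 0.1 of the median of this class. In cKO, Cd3e (-0.77) and Cd4 (-0.81) were again within 0.1 of it, whereas Cd3d (-1.09) and Cd3g (-1.11) were lower. Lat and Lck fell by more than the class median in both genotypes. Zap70 and Lcp2 (-0.38 in WT and -0.30 in cKO) were above it in both. For Cd247, in the class of 50 to 100 TPM with medians of -0.30 and -0.50, the changes were -0.42 and 0.00.

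**Figure D3:**
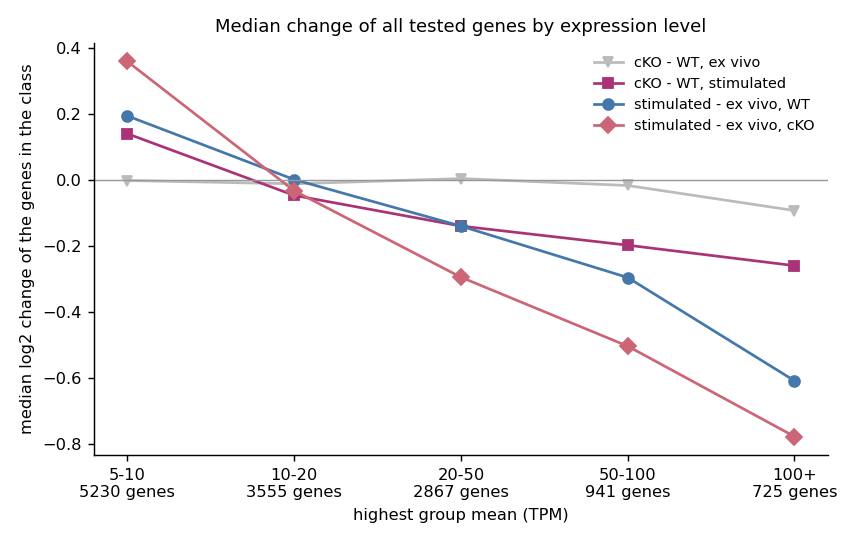
Median log2 change (y axis) of all tested genes in 5 classes of the highest group mean in TPM (x axis, with the number of genes in each class) for the 4 comparisons; each point is the median over genes, with no error shown. The 3 comparisons that involve stimulated cells slope downward with abundance, and genotype ex vivo stays near 0.

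When the fit was restricted to genes of at least 50 TPM and scaled on those (1666 genes, a setting added after the data were seen), most falls were smaller. Of the 1666 genes, 1080 were called by stimulation in WT, 1063 by stimulation in cKO and 365 for genotype in stimulated cells. In WT, Zap70 rose by 0.85 (adjusted p = 4.85e-07), Lat fell by 0.75 and Lck fell by 0.54, and the other 6 genes were not called. In cKO, Cd247 rose by 0.60, Zap70 by 0.50 and Lcp2 by 0.30, and Cd3d, Cd3g, Lck and Lat fell by 0.49, 0.50, 0.72 and 0.93. For genotype in stimulated cells, Cd247 (0.50), Cd4 (0.43) and Lcp2 (0.38) were called higher in cKO, and Cd3d (-0.39), Lck (-0.21) and Zap70 (-0.23) lower. Quantile normalization over the 13318 genes gave the same 6 calls for genotype in stimulated cells, where 1579 of all these genes were called. By stimulation in cKO, Zap70 and Lcp2 thus changed direction with both of these settings, and Cd3e with quantile normalization. Cd247, near 0 with the 5 TPM filter, was higher in both, but was at -0.55 with a filter of 1 TPM, -0.54 without a filter and -0.32 in unscaled TPM. Lat, Lck, Cd3d, Cd3g and Cd4 in cKO kept their direction in each setting run.

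**Figure D4:**
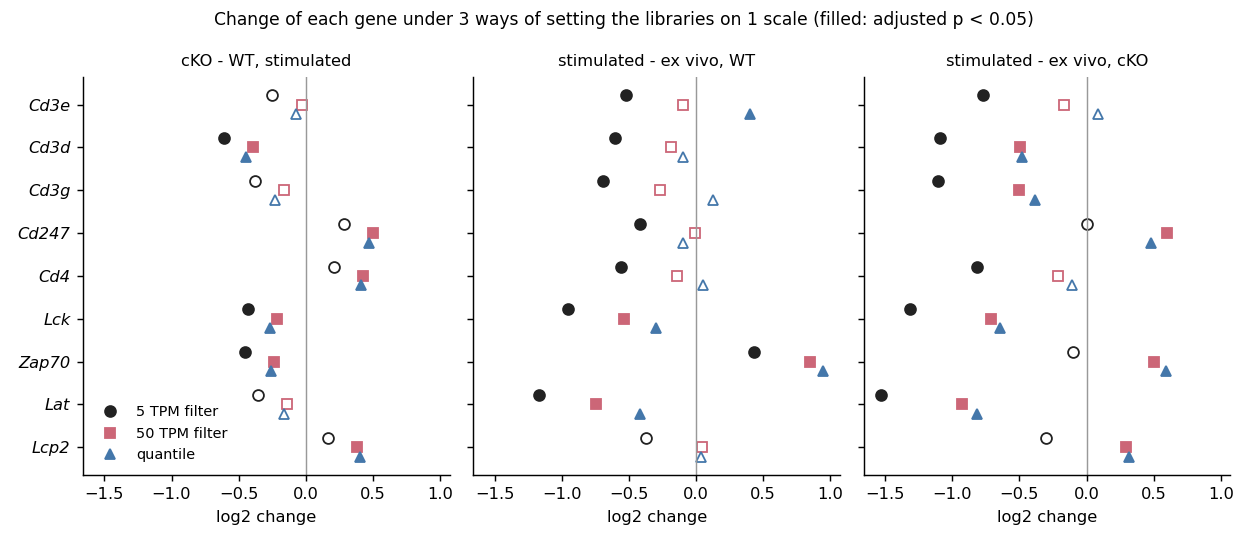
Log2 change (x axis) of each gene (y axis) in 3 comparisons with the 5 TPM filter (black circles), the 50 TPM filter (red squares) and quantile normalization (blue triangles); filled symbols had an adjusted p under 0.05. Most red and blue symbols lie to the right of the black ones, whereas Lat and Lck stay below 0 in the comparisons by stimulation.

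Ratios of the deposited TPM of 2 members within a library do not change when a library is multiplied by a single factor, although quantile normalization alters them. The pairs were chosen after the TPM were seen and are given without a test. Zap70 relative to Lck was 0.462 ± 0.018 (WT) and 0.512 ± 0.0381 (cKO) ex vivo, and 1.21 ± 0.0263 (WT) and 1.196 ± 0.0346 (cKO) after stimulation (SD, n = 3). Thus the 2 kinases exchanged their order in every stimulated library, with no separation of the genotypes after stimulation. Lcp2 relative to Lat was 0.295 ± 0.0108 and 0.313 ± 0.0067 ex vivo (WT and cKO), and 0.514 ± 0.0539 and 0.739 ± 0.0835 after stimulation. Cd247 relative to Cd3e was 0.101 ± 0.0086 and 0.0904 ± 0.0068 ex vivo, and 0.107 ± 0.0064 and 0.155 ± 0.0061 after stimulation (WT and cKO). In cKO stimulated Treg the lowest of the 3 libraries (0.151) was above the highest of the other 9 (0.114). Cd3d relative to Cd3e was lowest in cKO stimulated by the group means (0.193 ± 0.0239, against 0.242 to 0.264 in the other groups), but the libraries overlapped, with 0.221 in cKO stimulated replicate 3 and 0.213 in WT stimulated replicate 3.

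Cd4 relative to Cd3e separated the genotypes in both conditions. It was 0.340 ± 0.0234 in WT and 0.466 ± 0.0124 in cKO ex vivo, and 0.330 ± 0.019 in WT and 0.454 ± 0.0429 in cKO after stimulation. The highest WT library (0.365) was below the lowest cKO library (0.405). As a share of the summed TPM of the 9 genes, Cd4 took 9.12% ± 0.610 in WT and 12.1% ± 0.295 in cKO ex vivo, and 9.41% ± 0.451 and 12.9% ± 1.03 after stimulation. An exact two-sided permutation test of the share gave p = 0.1 in both conditions, the smallest value that 3 against 3 can give. Of the 36 shares compared (9 genes, 4 comparisons), 22 had this same p, so that it does not set Cd4 apart, and none can pass an adjustment with this exact test. Shares of 1 library add up to a fixed total, so that a change in 1 gene moves those of the others. Zap70 took 5.04% in WT ex vivo and 10.4% in WT stimulated, and 5.16% and 8.95% in cKO. Lat took 16.1% and 10.9% in WT, and 15.7% and 10.03% in cKO.

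**Figure D5:**
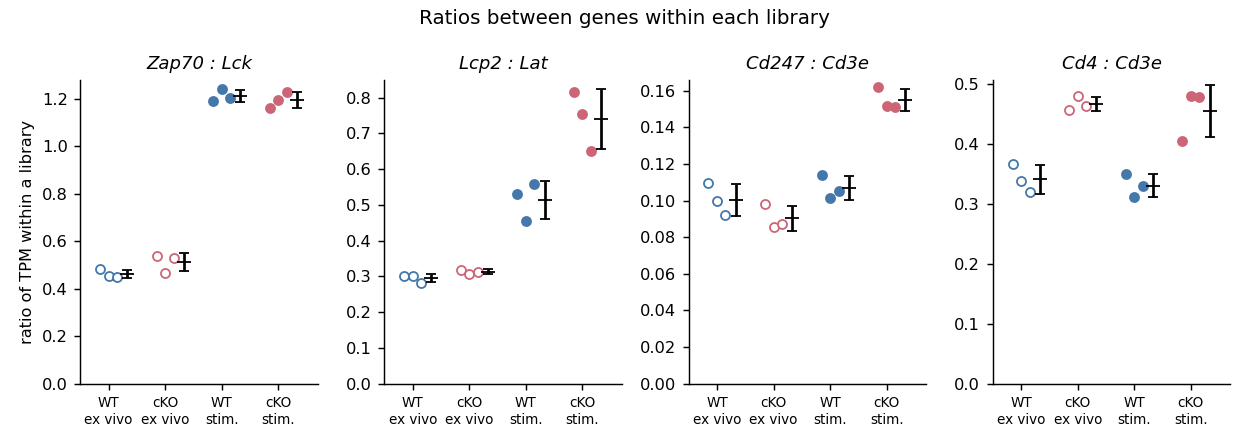
Ratio of the TPM of 2 genes within a library (y axis, from 0) in the 4 groups (x axis); open points are ex vivo, filled points stimulated, and bars show mean ± SD of 3 libraries. Zap70 to Lck differs by stimulation, Cd4 to Cd3e by genotype, and Cd247 to Cd3e is highest in the 3 cKO stimulated libraries.

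The difference between the stimulation effects of cKO and WT was tested directly, and no member was called, against 1.10% of all tested genes (147 genes, 0.451% higher and 0.653% lower). By unadjusted p under 0.05, 5 members passed and 1926 of all genes did. The other normalizations gave up to 3 called members (quantile normalization, where 392 of 13318 genes were called). The largest was Zap70 (-0.53, SE 0.16, adjusted p = 0.145), then Cd3d (-0.49, SE 0.19, adjusted p = 0.269) and, with the opposite sign, Cd247 (0.42, SE 0.18, adjusted p = 0.301). With the 50 TPM filter, Cd247 (0.61, adjusted p = 0.00382) and Zap70 (-0.35, adjusted p = 0.0183) were called, as were 210 of all 1666 genes in that fit.

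The constant regions of the TCR alpha and beta chains, the antigen-binding partners of the CD3 chains, were lower in cKO than in WT Treg after stimulation. Trac, Trbc1 and Trbc2 had 1129 ± 137, 264 ± 61.1 and 751 ± 186 TPM in WT ex vivo and 1305 ± 78.0, 286 ± 41.2 and 760 ± 33.2 TPM in cKO ex vivo, where none was called for genotype. After stimulation the WT values were 832 ± 139, 205 ± 19.8 and 372 ± 50.2 TPM, and those of cKO 450.2 ± 134, 105 ± 25.1 and 204 ± 57.4 TPM. The genotype differences after stimulation were -0.63 (adjusted p = 0.0147), -0.69 (adjusted p = 0.0301) and -0.60 (adjusted p = 0.0223), and each lost the call when 1 library was left out (highest adjusted p = 0.0700, 0.131 and 0.0989). Trac fell by 0.65 and 1.25 with stimulation in WT and cKO, Trbc1 by 0.54 and 1.12, and Trbc2 by 1.19 and 1.60, while quantile normalization gave Trac 0.10 and Trbc1 0.21 in WT. Trbc1 and Trbc2 are near-identical, so that the division of reads between them is uncertain.

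Of 63 further genes of the pathway in 6 lists (TCR chains, coreceptors and costimulatory receptors, Src and Tec kinases with Csk, phosphatases, adaptors, and effectors), 57 were tested. For genotype ex vivo 2 were called higher in cKO and 3 lower, against 3.62% and 1.67% of all tested genes. Malt1, a subunit of the complex that links the receptor to NF-kB, rose by 0.67 (SE 0.12, adjusted p = 0.00857), with 46.6 ± 8.4 TPM (WT) and 87.4 ± 4.4 TPM (cKO). Ptpn11, which encodes the phosphatase SHP-2, rose by 0.60 (adjusted p = 0.00547). Lower were Trat1, a transmembrane adaptor that stabilises the TCR complex (-0.79, adjusted p = 0.00573), Grap, an adaptor of the Grb2 family (-0.59, adjusted p = 0.00242), and Txk, a Tec-family kinase (-0.56, adjusted p = 0.0208). Txk was not called without cKO ex vivo replicate 3 (adjusted p = 0.0835).

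In stimulated cells, 11 of the 57 genes were called lower in cKO and none higher, against 3.63% called lower and 3.30% higher among all tested genes, and 11.8% lower among genes of at least 50 TPM. Besides the 3 TCR constant regions these were Cd27, a costimulatory receptor of the TNF receptor family (-1.15, adjusted p = 0.000391), Grap (-0.80), Cd5, an inhibitory receptor that tracks TCR signal strength (-0.76), Cd28, the costimulatory receptor that the second antibody engaged (-0.68), the phosphatase genes Ptpn6 (-0.67) and Ubash3a (-0.56), both known as brakes on TCR signalling, and the adaptor genes Lax1 (-0.50) and Skap1 (-0.45). Stimulated WT libraries had a mean of 156 TPM of Cd27 and stimulated cKO libraries 57.7. Lax1 was not called without cKO stimulated replicate 3 (adjusted p = 0.0521), nor Skap1 without WT stimulated replicate 2 (adjusted p = 0.0901). No gene of the kinase list or the effector list was called. The median over the 57 genes was -0.20.

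With stimulation, 12 of the 57 rose and 32 fell in WT, and 8 rose and 36 fell in cKO, with medians of -0.42 and -0.60. Of all tested genes, 12.7% were called higher and 19.3% lower in WT, and 17.3% higher and 26.5% lower in cKO. Genes of at least 50 TPM had similar medians of -0.41 and -0.62, with 8.82% called higher and 50.2% lower in WT, and 7.32% higher and 66.4% lower in cKO. Cblb, a ubiquitin ligase that limits TCR signalling, rose by 1.34 in WT (from 77.3 ± 34.6 to 215 ± 27.6 TPM) and by 1.31 in cKO. Sh2d2a, an adaptor that binds Lck, rose by 0.84 and 1.12. Cd28 fell by 1.35 and 2.04, the adaptor gene Sit1 by 1.61 and 1.72, and the GTPase gene Rac2 by 1.42 and 1.68. The stimulation effects of Cd27 (-0.85, adjusted p = 0.0486) and Lax1 (-0.75, adjusted p = 0.0285) differed between genotypes, and both lost the call without a single library (highest adjusted p = 0.139 and 0.0812). In WT, Cd27 rose by 0.64 with stimulation (adjusted p = 0.00256). With the filter of 1 TPM, the calls named here for genotype (other than Ikzf1), for the interaction and for Cblb, Sh2d2a and Cd27 by stimulation were not made (adjusted p from 0.0725 for Cd27 by genotype after stimulation to 0.688 for Txk ex vivo), while those of Cd28, Sit1 and Rac2 by stimulation were.

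Promoters were searched for the Ikaros core motif TGGGAA on both strands (TTCCCA on the other), in the 250 bases before each RefSeq start (GRCm38.p6, a different build from that of the expression data). Of all 32851 promoters in the table, 21.6% held it. Among the members 8 of 9 were in the table, without Cd4, with 11 starts in all, and 6 of these 11 held 1 match, each in a different gene. The 30 bases around each match are shown 5′ to 3′ on the strand of the gene, with the motif in capitals, because the factor that was deleted binds this core.
Cd3e: tgttcatccttaTGGGAAggctgtgaggcg
Cd3g: ggggtttccaagTGGGAAtctagaacctca
Lck: cctccagaacgcTGGGAAtatggacctatg
Zap70: gggggctcactgTGGGAAgcagcctttgcc
Lat: gcctcctcccccTTCCCAcaactgggtggg
Lcp2: ctgtaatactaaTGGGAAaaaaaatacttg
The stretches lay at chr9:45009717-45009746 (Cd3e, minus), chr9:44980588-44980617 (Cd3g, minus), chr4:129573831-129573860 (Lck, minus), chr1:36761607-36761636 (Zap70, plus), chr7:126369632-126369661 (Lat, minus) and chr11:34046873-34046902 (Lcp2, plus). The first base of the motif was 43 to 207 bases before the start, nearest in Lcp2 and farthest in Lck. The windows of Cd3d and Cd247 did not hold these letters. Members with and without a match were found both among those called lower in stimulated cKO cells and among the rest. The RNA-seq libraries do not measure binding, and the ChIP-seq of Ikaros that the study also made was not analysed here.

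Across the 12 libraries the members did not vary as a single block. The Pearson correlation of each gene with the mean of the other 8, on standardised scaled log2 values, was 0.98 for Cd3e, 0.95 for Lat, 0.94 for Lck, 0.92 for Cd3g, 0.87 for Cd3d, 0.79 for Cd4, 0.78 for Lcp2, 0.51 for Cd247 and -0.17 for Zap70. These values describe 12 libraries that share groups and scaling. Of 3568 other genes with a mean of at least 20 TPM, those most like the mean of the 9 were Slc35a4 (r = 0.99), Wdr1 (0.98), Dpysl2 (0.98), Ssrp1 (0.98) and Gltp (0.98).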

How the data were processed

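The authors sequenced rRNA-depleted, strand-specific libraries, aligned reads to mm9 with STAR 2.6.0c and counted them per gene with HTSeq 0.6.1 (versions per the submitters' processing notes). The authors deposited TPM per gene and library, held as one stacked signal column, together with a log2 column from which the whole reads behind each TPM were recovered (99.9988% of 434664 values lay within 0.05 reads of a whole number). A second table with the authors' own fold changes and p-values was not used. TPM were scaled by trimmed means of M-values (30% of M and 5% of A values trimmed), transformed to log2(TPM + 1) and fitted with limma 3.58.1 in R 4.3.3 (two-sided moderated test with a mean-variance trend, all 12 libraries, Benjamini-Hochberg adjustment per comparison). Other steps used Python 3.11.15 and pandas 2.3.3. The unit is TPM, so log2 changes of low genes are understated. Intervals were built from the limma estimate and its SE with a normal approximation. They are therefore narrower than intervals from the moderated t-test. The scripts were tested on simulated data. Alternatives were a filter of 1 or 50 TPM or none, a pseudocount of 0.1, deposited TPM without scaling, median-of-ratios scaling, quantile normalization, the recovered reads with limma voom, the replicate number as a block, only the 2 groups compared, and each library left out. The named genes are the 9 members, Ikzf1, the TCR constant regions, and called genes of the 6 pathway lists, at most 4 per direction and list by size. Members and lists were chosen with earlier results of these data known. Gene positions come from GENCODE vM1. A protein table was not used, so ITAMs were read from coding sequences.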

Additional observations from a re-analysis of the deposited data

How the results depend on the processing

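Of the calls by stimulation, those of Lat and Lck in both genotypes and of Cd3d and Cd3g in cKO held in all 22 alternatives. Where a value below differs from the report, the cause was not tested, except that a filter of 1 TPM or none adds tested genes and the 50 TPM filter removes them. Most counts that moved by less than a set ratio, and medians that moved by less than 0.122, are not listed. The genotype calls in stimulated cells (Cd3d, Lck and Zap70) depended on the filter and on single libraries. With a filter of 1 TPM, the calls over all genes numbered 57 for genotype ex vivo, 52 for genotype after stimulation, 1731 for WT by stimulation and 0 for the interaction, the members called numbered 0 for genotype after stimulation and 2 for WT by stimulation, and the median of the 9 genes was -0.66 for genotype after stimulation, -0.81 for WT by stimulation, -1.37 for cKO by stimulation and -0.67 for the interaction. Opposite in sign to the values in the report were Cd247 -0.016, Cd4 -0.10 and Lcp2 -0.14 for genotype after stimulation, Cd247 -0.55 for cKO by stimulation, Lcp2 -0.24 for the interaction. Without a filter, the calls over all genes numbered 44 for genotype ex vivo, 59 for genotype after stimulation, 1676 for WT by stimulation and 0 for the interaction, the members called numbered 0 for genotype after stimulation and 2 for WT by stimulation, and the median of the 9 genes was -0.66 for genotype after stimulation, -0.82 for WT by stimulation, -1.37 for cKO by stimulation and -0.66 for the interaction. Opposite in sign to the values in the report were Cd3e -0.0067 and Lat -0.0013 for genotype ex vivo, Cd247 -0.023, Cd4 -0.10 and Lcp2 -0.14 for genotype after stimulation, Cd247 -0.54 for cKO by stimulation, Lcp2 -0.22 for the interaction. With a pseudocount of 0.1, the members called numbered 1 for genotype ex vivo. With TPM as deposited, unscaled, the calls over all genes numbered 273 for genotype ex vivo, 306 for genotype after stimulation, 1943 for WT by stimulation and 67 for the interaction, the members called numbered 1 for genotype after stimulation and 2 for WT by stimulation, and the median of the 9 genes was 0.25 for genotype ex vivo, -0.64 for genotype after stimulation, -0.36 for WT by stimulation, -1.14 for cKO by stimulation and -0.89 for the interaction. Opposite in sign to the values in the report were Cd3d 0.12, Cd247 0.092 and Lck 0.17 for genotype ex vivo, Cd247 -0.0031, Cd4 -0.082 and Lcp2 -0.12 for genotype after stimulation, Cd247 -0.32 for cKO by stimulation, Cd247 -0.10 and Lcp2 -0.45 for the interaction. With median-of-ratios scaling, the values opposite in sign were Cd3e -0.007 and Lat -0.0015 for genotype ex vivo. With quantile normalization, the calls over all genes numbered 1579 for genotype after stimulation and 392 for the interaction, the members called numbered 1 for genotype ex vivo, 6 for genotype after stimulation, 4 for WT by stimulation and 3 for the interaction, and the median of the 9 genes was -0.16 for genotype after stimulation, 0.039 for WT by stimulation and -0.11 for cKO by stimulation. For cKO by stimulation, quantile normalization called 3 members higher and 4 lower. Opposite in sign to the values in the report were Lck 0.082 for genotype ex vivo, Cd3e 0.40, Cd3g 0.13, Cd4 0.049, Lcp2 0.039, Trac 0.10 and Trbc1 0.21 for WT by stimulation, Cd3e 0.083, Zap70 0.59 and Lcp2 0.32 for cKO by stimulation. With the recovered reads and limma voom, the calls over all genes numbered 1253 for genotype ex vivo and 420 for the interaction, and the members called numbered 1 for genotype ex vivo. For genotype after stimulation, voom called 4 members, all lower, with Lat added (adjusted p = 0.0340). For WT by stimulation it called 1 higher and 8 lower, with Lcp2 added (adjusted p = 0.0340). With only the 2 groups compared in the fit, the calls over all genes numbered 401 for genotype ex vivo and 552 for genotype after stimulation. With the added filter of 50 TPM, the calls over all genes numbered 413 for genotype ex vivo, 365 for genotype after stimulation, 1080 for WT by stimulation and 1063 for cKO by stimulation, the members called numbered 1 for genotype ex vivo, 6 for genotype after stimulation, 3 for WT by stimulation and 2 for the interaction, and the median of the 9 genes was -0.14 for genotype after stimulation, -0.14 for WT by stimulation, -0.21 for cKO by stimulation and -0.18 for the interaction. Opposite in sign to the values in the report were Lcp2 0.041 for WT by stimulation, Zap70 0.50 and Lcp2 0.30 for cKO by stimulation. Where limma called 0 genes for the interaction with the 1 TPM filter and without a filter, 2467 and 2505 genes had an unadjusted p under 0.05, and of the members 5 and 5 did for genotype after stimulation, where 0 were called. Unscaled TPM moved the median of the 13318 genes by 0.22, -0.26, 0.18, -0.30 and -0.48 in the 5 comparisons, and the 1 TPM filter by -0.27, -0.23, -0.51 and -0.28 in the last 4. 

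Leaving out each library in turn gave 324 to 740 calls over all genes for genotype ex vivo, 398 to 1054 for genotype after stimulation, 3256 to 4387 for WT by stimulation, 4098 to 5992 for cKO by stimulation, and 50 to 203 for the interaction. The members called then ranged from 0 to 1, 0 to 3, 6 to 9, 6 to 6 and 0 to 0 in the same order, and the median of the 9 genes from -0.063 to 0.097, -0.44 to -0.24, -0.64 to -0.45, -0.98 to -0.70 and -0.43 to -0.24. Some values near 0 spanned both signs in these fits: for genotype ex vivo Cd3e (-0.063 to 0.097), Cd3d (-0.20 to 0.020), Cd3g (-0.074 to 0.18), Zap70 (-0.013 to 0.18) and Lat (-0.078 to 0.096), for cKO by stimulation Cd247 (-0.10 to 0.17) and Zap70 (-0.20 to 0.0021), and for the interaction Lcp2 (-0.031 to 0.29).

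With the replicate number as a block, 1 member was called for genotype after stimulation, and calls over all genes numbered 516, 630, 3945, 5457 and 65 in the 5 comparisons. The number marks no shared animal or batch in the labels. Deviations from the group means had correlations of -0.21 to 0.26 over 18 pairs of the same number. Over 36 pairs with different numbers they were -0.19 to 0.22. Between WT and cKO ex vivo, the same-number pairs (0.15, 0.26 and 0.08) were above the different-number pairs (-0.18 to 0.06). The lowest same-number pair was cKO ex vivo with cKO stimulated, replicate 2 (-0.21). These correlations cannot show if animals or batches were shared, so the pairing is unknown.

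Shares of the summed TPM moved by more than the spread between replicates in 22 of 36 comparisons when whole reads, which are not corrected for length, took the place of TPM, and in none when a library was left out. The lowest count behind a member's value was 447 reads, and the number of libraries, 3 a group, limits the precision.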
